A study of Mus musculus with 12 samples.

Results

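The 9 genes described here, Axl, Ngfr, Zeb1, Zeb2, Vim, Cdh1, Cdh2, Sox9 and Egfr, are markers by which melanoma cells are placed along the change to mesenchymal and dedifferentiated states, with Cdh1 and, in melanoma, Zeb2 on the side that such cells leave. They were taken by symbol from a named list, which was chosen with earlier results of these data known. They are 9 of the 27503 genes of the deposited table. RNA was sequenced from B16F10, a transplantable mouse melanoma cell line, in 12 libraries of 4 groups with 3 libraries each. The groups were mutant cells carrying the C435A form of IRF7 with interferon alpha (IFNα), wild-type cells with IFNα, mutant cells without it (mutant control) and wild-type cells without it (wild-type control). C435A replaces a cysteine of IRF7, a transcription factor of the interferon system, with alanine. The labels give no dose, time or number of clones. They do not say that the libraries of a group came from different cultures, and the spread behind each p-value may be technical.

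Melanoma cells can move between a differentiated, pigment-making state and invasive or neural crest-like states with little pigment programme. The change resembles the epithelial-mesenchymal transition, in which the cadherin of epithelial cells, E-cadherin, gives way to N-cadherin, and vimentin filaments replace keratin filaments. ZEB1 and ZEB2 are zinc finger repressors of E-cadherin, and in human melanoma a switch in which ZEB1 takes the place of ZEB2 goes with dedifferentiation. The receptors AXL, EGFR and NGFR are known there as markers of dedifferentiated and drug-tolerant cells.

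Total counts per library were 60511573 to 75927461. The summed melanoma markers, among them pigment enzymes and Sox10, stood at 7198 to 9616 CPM (counts scaled to a common TMM-adjusted library total) in the 12 libraries. Transcripts of lung were present in 8 libraries. Sftpc and Scgb1a1, made by alveolar type II and airway secretory cells, together reached 23.0 to 40.1 CPM in mutant IFNα 3, in each library of the wild-type IFNα and mutant control groups, and in wild-type control 1. In mutant IFNα 1 and 2 and wild-type control 2 and 3 they summed to at most 0.156 CPM. The presence of lung transcripts therefore differed between the groups. It is set beside some of the results below, and holds as a limit for the others too. Irf7 itself averaged 5.52 ± 1.48 FPKM (fragments scaled for gene length and library depth by the authors) in mutant IFNα, 9.05 ± 0.734 in wild-type IFNα, 4.87 ± 0.392 in mutant control and 12.3 ± 0.611 FPKM in wild-type control cells (SD, n = 3 each).

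The 9 genes spanned a wide range of levels per transcript length. Vim led with a mean of 127 FPKM over the 12 libraries, rank 576 in the table. Axl followed at 8.04 FPKM, Cdh2 at 1.86, Zeb2 at 0.705, Sox9 at 0.573, Ngfr at 0.220, Cdh1 at 0.113, Zeb1 at 0.0410 and Egfr at 0.00395 FPKM. Vim lay above Axl, Axl above Cdh2, Cdh2 above Zeb2, Sox9 above Ngfr and Zeb1 above Egfr in each of the 12 libraries. Zeb2 exceeded Sox9 in 10 libraries and Ngfr exceeded Cdh1 in 10, so these neighbours were not separated beyond their spread. Cdh1 exceeded Zeb1 in 8, those with lung transcripts, where Cdh1 had at least 0.0948 FPKM and Zeb1 at most 0.0865 FPKM. In the 4 without, Cdh1 had at most 0.0113 FPKM and Zeb1 at least 0.0279 FPKM. Only Vim, Axl and Cdh2 had a mean above 1 FPKM.

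**Figure D1:**
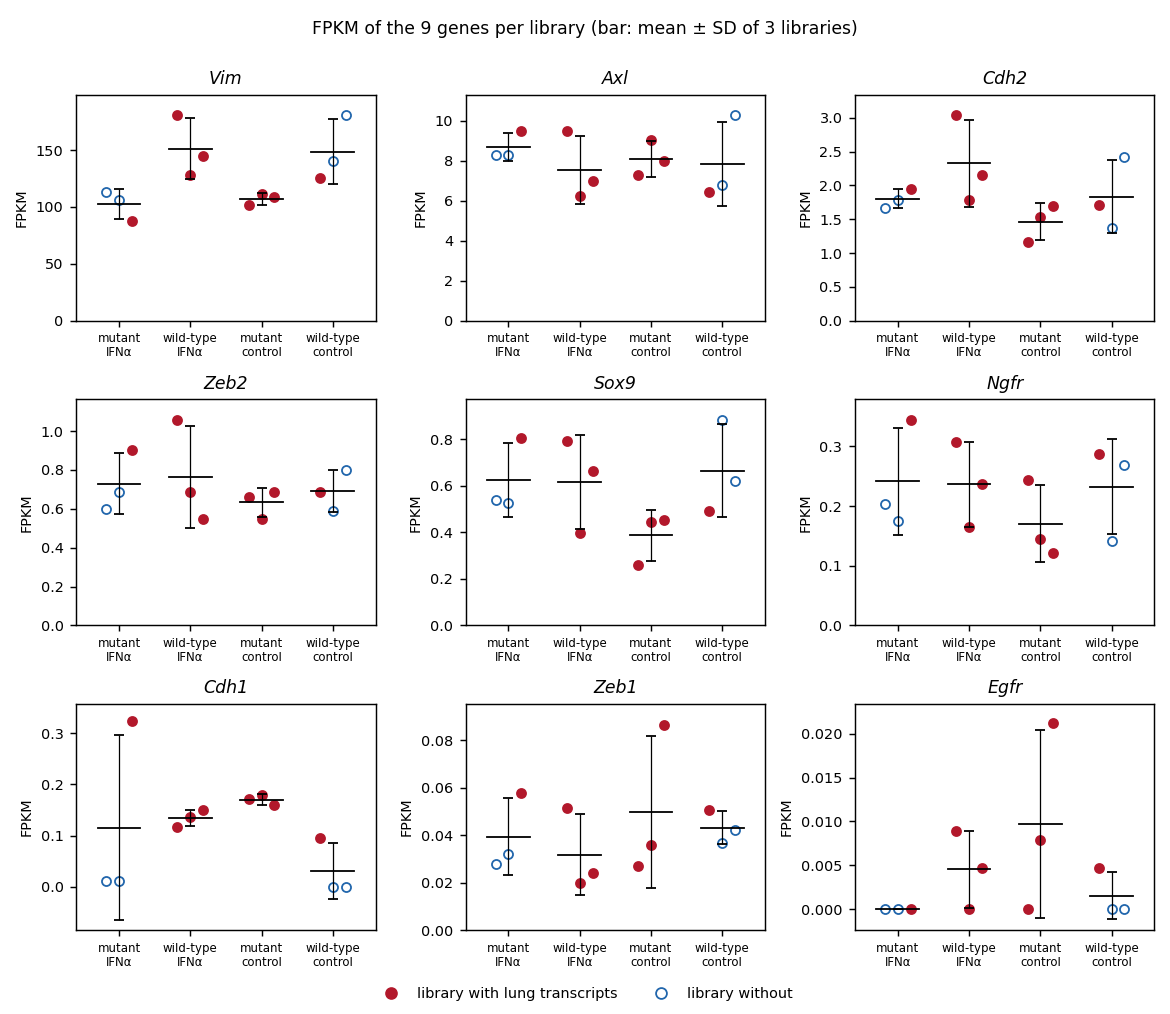
FPKM (vertical axis, own linear scale per gene) of the 9 genes in each library, by group. Points are libraries, filled where lung transcripts were present and open where they were not, and bars are mean ± SD of 3 libraries. Vim is lower in the 6 mutant libraries (at most 113 FPKM) than in the 6 wild-type ones (at least 125 FPKM), and Cdh1 is at or near 0 in the open points.

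Without IFNα, 0 of the 8 genes tested differed between mutant and wild-type cells in edgeR's quasi-likelihood test at an adjusted p under 0.05, where 0.165% of the 17590 genes tested did. At an unadjusted p under 0.05 there were 2, Vim and Sox9, where 10.7% of all genes lay there. DESeq2, which called 1.36% of all genes, and limma called 0. Here and below limma covered only genes reaching 1 FPKM in 3 libraries, of the 8 only Vim, Axl and Cdh2. With IFNα, 0 of 8 passed again, against 0.597% of all genes. There 1 gene, Vim, had an unadjusted p under 0.05, where 13.7% of all genes did, and DESeq2 called it (log2 fold change −0.46, adjusted p = 0.0149), as it did 3.41% of all genes, while limma called 0. The median log2 fold change of the 8 was −0.12 without IFNα and 0.08 with it, where all genes had 0.00 and −0.01.

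IFNα itself changed 0 of the 8 genes at an adjusted p under 0.05 in either line. The share of all genes past that threshold in edgeR was 0.00569% in mutant cells (IFNα against control) and 0.0227% in wild-type cells. At an unadjusted p under 0.05 there were 0 of the 8 in each line, where 10.3% of all genes lay in mutant and 5.44% in wild-type cells, and DESeq2 and limma called 0. The median of the 8 log2 fold changes was 0.13 in mutant and 0.00 in wild-type cells. The interaction asks whether the IFNα effect differed between the lines. It was called for 0 of the 8 by edgeR and DESeq2, and limma called 0 of those it covered. At an unadjusted p under 0.05 there were 0 in edgeR, where 5.17% of all genes lay, and edgeR called 0% of all genes.

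Since mutant and wild-type cells were compared at both treatments, the line difference was also averaged over them, a comparison added after the data were seen. In it 1 of the 8 genes passed, Vim, lower in the mutant cells, where 2.8% of all genes passed and 0.915% passed with a lower level. Axl had an unadjusted p of 0.0478 and an adjusted p of 0.271 in edgeR and was not called, where 18.1% of all genes had an unadjusted p under 0.05. These comparisons share libraries, so their values for a gene are not independent. In the 5 comparisons set first, the 95% intervals of Axl, Cdh2, Vim and Zeb2 all lay within a 2-fold difference, whereas those of Cdh1 and Zeb1 reached past it in each of them.

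**Figure D2:**
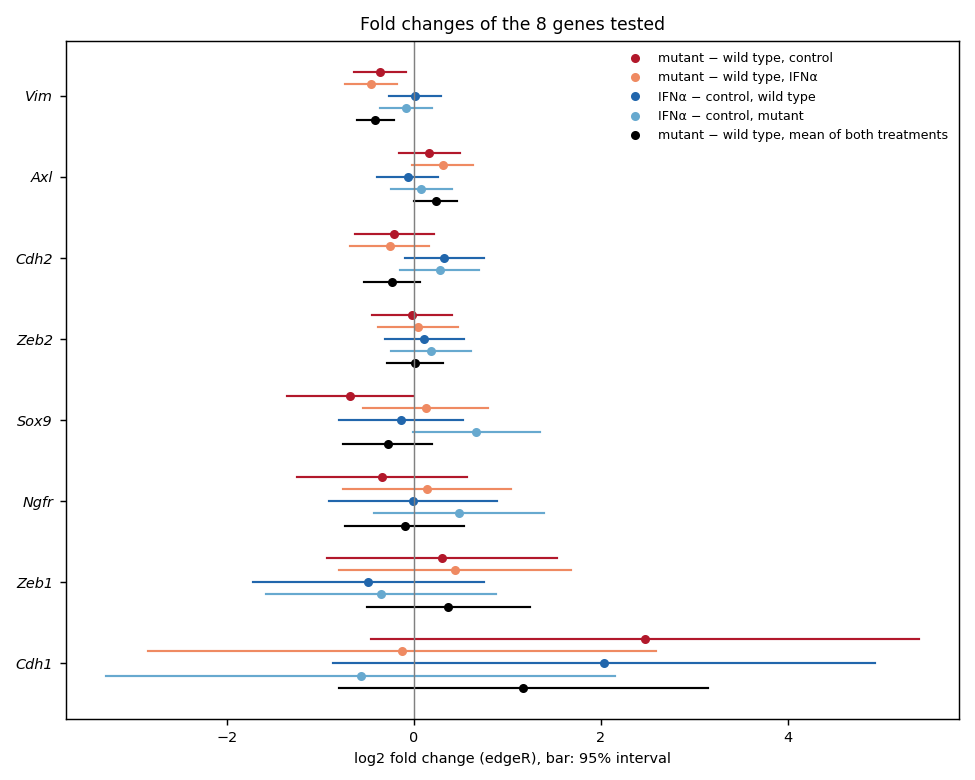
Log2 fold changes from edgeR (horizontal axis) of the 8 genes tested, with 95% intervals as bars, for mutant against wild type without IFNα, with IFNα and averaged over both, and for IFNα against control in each line. The averaged interval of Vim runs from −0.61 to −0.22, while that of Cdh1 runs from −0.81 to 3.15.

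Vim encodes vimentin, the intermediate filament protein of mesenchymal cells and of most cultured melanoma lines. It had 113, 106 and 87.6 FPKM in mutant IFNα libraries, against 180.5, 128 and 144 FPKM in wild-type IFNα libraries. Without IFNα it had 101, 111 and 109 FPKM in mutant libraries, against 125, 140.1 and 180.5 FPKM in wild-type libraries. All 6 mutant libraries lay below all 6 wild-type libraries, as did 0.978% of all genes tested. The log2 fold change, mutant over wild type, was −0.46 ± 0.13 with IFNα (SE, adjusted p = 0.128) and −0.36 ± 0.13 without it (adjusted p = 0.348), and neither passed in edgeR. Averaged over the treatments it was −0.41 ± 0.0917 (edgeR adjusted p = 0.0295), with the mutant lower in 6 of 6 libraries. Leaving out 1 library at a time, the call was lost in 8 of 12 fits, with edgeR adjusted p up to 0.0874. It held without mutant IFNα 1, mutant IFNα 3, wild-type IFNα 2 or wild-type control 1, and was lost without any other library.

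Vimentin is also a protein of fibroblasts, endothelium and leukocytes, and its level is given here beside the lung transcripts. Vim had 87.6 to 180.5 FPKM in the 8 libraries with lung transcripts and 106 to 180.5 FPKM in the 4 without. With a term for lung transcripts in the model the averaged difference was −0.41 (edgeR adjusted p = 0.0145). Lung transcripts were in 1 mutant and 3 wild-type libraries with IFNα, and in 3 and 1 without it. Averaged, the lines were thus balanced, so the term could barely move the averaged difference and is no check on it. Over the 8 libraries alone the averaged difference was −0.43. The term moved the values within a treatment by more than 1.5 times without IFNα, to −0.18 (adjusted p = 0.783), and to −0.65 (adjusted p = 0.0613) with it. Among the 8 libraries these values were −0.19 and −0.67 (adjusted p = 0.867 and 0.0333), resting on 1 wild-type library without IFNα and 1 mutant library with it. The summed fibroblast markers lay between 107 and 167 CPM with lung transcripts and 97.2 and 114 CPM without, where Dcn and Mgp were at 0. The summed endothelial markers lay between 29.5 and 47.3 CPM with and 23.3 and 32.1 CPM without, where Tek, Cdh5, Cldn5 and Emcn were at 0. The summed leukocyte markers reached 108 to 159 CPM in mutant IFNα, 99.0 to 137 in wild-type IFNα, 163 to 182 in mutant control and 104 to 143 CPM in wild-type control cells, overlapping between the lines with IFNα and higher in the mutant without it. The summed melanoma markers moved the same way as Vim, at 7200 to 7597 CPM in mutant IFNα, 8042 to 9616 in wild-type IFNα, 7198 to 8189 in mutant control and 8074 to 8702 CPM in wild-type control cells; their part in the Vim difference was not tested.

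Over the 12 libraries Eif3c, Mthfd1l and Lxn followed Vim most closely among 4794 expressed genes, with Pearson correlations of log2(CPM + 1) of 0.967, 0.963 and 0.963. These points share library, depth and group, and the correlations describe likeness of pattern only. Vim lies on chromosome 2, from 13578738 to 13587637 on the plus strand as deposited. The promoter of Vim is shown because edgeR, over all 12 libraries, called only Vim of the 8 tested, in the averaged line comparison alone. That of Axl, the most abundant receptor of the 9, stands beside it for comparison. Both are the 250 bases before the start of transcription in RefSeq on GRCm38.p6, at chr2:13574061-13574310 on the plus strand for Vim and chr7:25788734-25788983 on the minus strand for Axl. Capitals mark matches to TATAAA and to CCAAT on either strand (ATTGG is the reverse complement of CCAAT).
Vim: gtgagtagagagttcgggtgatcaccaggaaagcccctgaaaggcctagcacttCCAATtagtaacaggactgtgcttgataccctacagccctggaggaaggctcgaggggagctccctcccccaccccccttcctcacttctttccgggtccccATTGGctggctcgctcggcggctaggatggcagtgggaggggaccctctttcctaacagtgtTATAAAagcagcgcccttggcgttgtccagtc
Axl: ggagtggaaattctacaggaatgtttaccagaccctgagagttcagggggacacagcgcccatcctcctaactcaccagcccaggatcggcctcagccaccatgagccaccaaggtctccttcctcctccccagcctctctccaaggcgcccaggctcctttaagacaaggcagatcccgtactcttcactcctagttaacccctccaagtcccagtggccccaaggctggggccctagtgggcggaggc
The Vim window holds 1 TATAAA close to the start and 2 CCAAT matches, which 12.4% and 33.8% of 32851 mouse windows of this length hold. The Axl window holds neither. CACCTG, the box that ZEB proteins bind, and GAAA followed after 2 bases by a further GAAA, a core of the sites that interferon regulatory factors bind, were searched on both strands too. They were found in 17.2% and 2.98% of all windows and in none of the 8 windows taken for Vim, Axl, Egfr, Ngfr and Zeb2. Several of those 8 were of Zeb2, some of them overlapping. None was of Zeb1, Cdh1, Cdh2 or Sox9, so the absence does not cover those genes. None of these motifs contains another, and a match or its absence describes these letters only.

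Axl encodes a receptor tyrosine kinase of the TAM family, activated by the ligand GAS6. It had 8.27, 8.27 and 9.49 FPKM in mutant IFNα libraries, against 9.47, 6.23 and 6.97 FPKM in wild-type IFNα libraries. Without IFNα it had 7.27, 9.06 and 7.97 FPKM in mutant libraries, against 6.46, 6.80 and 10.3 FPKM in wild-type libraries. The groups overlapped at both treatments. The log2 fold change of mutant over wild type was 0.31 ± 0.152 with IFNα and 0.16 ± 0.152 without it (edgeR adjusted p = 0.400 and 0.740). Averaged over the treatments it was 0.23 ± 0.108, with a 95% interval from 0.00 to 0.46, and among the 8 libraries with lung transcripts it was 0.40 (edgeR adjusted p = 0.115). IFNα against control gave 0.08 ± 0.152 in mutant and −0.07 ± 0.152 in wild-type cells. Mrps5, Plekhb2 and Ess2 had the closest patterns over the 12 libraries (Pearson correlations 0.877, 0.832 and 0.820).

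Of the other TAM genes, Tyro3, Mertk, Gas6 and Pros1, 0 of 4 were called in any comparison by edgeR or DESeq2. At most 2 in a comparison had an unadjusted p under 0.05 in edgeR, and limma called 0 of those it covered. Tyro3, a receptor of the same family, averaged 2.76 ± 0.441 FPKM in mutant IFNα, 2.61 ± 0.304 in wild-type IFNα, 1.94 ± 0.0590 in mutant control and 2.01 ± 0.154 FPKM in wild-type control cells. Its log2 fold change with IFNα in mutant cells was 0.49 ± 0.142 (edgeR adjusted p = 0.333). Gas6, the ligand, averaged 1.9 ± 0.162 FPKM in mutant IFNα, 2.08 ± 0.544 in wild-type IFNα, 2.91 ± 0.312 in mutant control and 2.03 ± 0.469 FPKM in wild-type control cells. Its log2 fold change with IFNα in mutant cells was −0.64 ± 0.249 (edgeR adjusted p = 0.427).

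Egfr, the receptor for epidermal growth factor, was near the limit of detection. It had 39 counts over the 12 libraries together, in 5 of them, and was too low to test. Its counts were 0, 0 and 0 in mutant IFNα, 8, 0 and 4 in wild-type IFNα, 0, 6 and 17 in mutant control and 4, 0 and 0 in wild-type control libraries. All 5 libraries with a count held lung transcripts, and the 4 without them were at 0. Of all 27503 genes, 14.5% were likewise at 0 in those 4 and above 0 in at least 1 library with lung transcripts. A count of 0 allows up to 3 counts per library for counting error alone. The related receptors Erbb2 and Erbb3 were higher per length. Erbb2 averaged 2.24 ± 0.407 FPKM in mutant IFNα, 2.83 ± 0.160 in wild-type IFNα, 1.89 ± 0.217 in mutant control and 2.01 ± 0.420 FPKM in wild-type control cells. In the list of EGF receptor relatives and ligands 0 of 6 genes tested were called by edgeR or DESeq2 in any comparison. At most 1 in a comparison had an unadjusted p under 0.05 in edgeR, and limma called 0 of those it covered.

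Ngfr encodes the low-affinity neurotrophin receptor, a marker of neural crest stem cells and of neural crest-like melanoma cells. It had 0.204, 0.175 and 0.344 FPKM in mutant IFNα, 0.308, 0.164 and 0.237 in wild-type IFNα, 0.243, 0.145 and 0.122 in mutant control and 0.287, 0.141 and 0.269 FPKM in wild-type control libraries. All groups overlapped. Its counts were 28 to 84 per library, and the 95% interval of mutant over wild type without IFNα ran from −1.25 to 0.57 on the log2 scale. Of the other neurotrophin receptors and ligands edgeR called 0 of 6 tested in any comparison, with at most 2 at an unadjusted p under 0.05, and DESeq2 called 1 in the averaged line comparison, Sort1. Bex3, which encodes a partner of this receptor, averaged 162 ± 32.5 FPKM in mutant IFNα, 181 ± 7.47 in wild-type IFNα, 203 ± 15.8 in mutant control and 184 ± 7.86 FPKM in wild-type control cells. Its log2 fold change for mutant over wild type was −0.079 ± 0.142 with IFNα and 0.23 ± 0.142 without it (edgeR adjusted p = 0.859 and 0.579). Maged1, a further partner, averaged 48.7 ± 2.80 FPKM in mutant IFNα, 52.6 ± 10.3 in wild-type IFNα, 41.7 ± 1.69 in mutant control and 52.3 ± 10.2 FPKM in wild-type control cells.

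Cdh2 encodes N-cadherin, the cadherin of neural and mesenchymal cells. It had 1.67, 1.78 and 1.95 FPKM in mutant IFNα libraries, against 3.03, 1.79 and 2.15 FPKM in wild-type IFNα libraries. Without IFNα it had 1.16, 1.54 and 1.69 FPKM in mutant libraries, against 1.71, 1.37 and 2.42 FPKM in wild-type libraries. The groups overlapped at both treatments. The log2 fold change of mutant over wild type was −0.26 ± 0.196 with IFNα and −0.21 ± 0.197 without it (edgeR adjusted p = 0.612 and 0.738). IFNα against control gave 0.28 ± 0.197 in mutant and 0.33 ± 0.196 in wild-type cells (edgeR adjusted p = 0.653 and 0.985). Dennd5a, Slc6a6 and Snrnp200 had the closest patterns, with correlations of 0.957, 0.894 and 0.891 over the 12 libraries.

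Cdh1 encodes E-cadherin, which holds melanocytes to keratinocytes in skin and lines the epithelia of lung and other organs. Its counts were 4, 4 and 98 in mutant IFNα, 43, 48 and 52 in wild-type IFNα, 51, 55 and 49 in mutant control and 33, 0 and 0 in wild-type control libraries. The 8 libraries with lung transcripts held 33 to 98 counts and the 4 without held 0 to 4. In level, Cdh1 had 0.0948 to 0.324 FPKM with lung transcripts and 0 to 0.0113 FPKM without. Such a split was not common: 1.31% of all genes tested were higher in each of those 8 libraries than in each of the other 4. In the 8 libraries Cdh1 stood at 18.2 to 42.8 counts per 1000 counts of Sftpc and Scgb1a1, highest in mutant IFNα 3. Epcam, an adhesion protein of epithelial cells, was at 0 in the 4 libraries without lung transcripts and at 0 to 28 counts in the 8 with them. A 0 in all 4, with a count in at least 1 of the 8, was seen for 14.5% of all 27503 genes. In bulk samples a change in the number of cells of a type and in the RNA of each cell cannot be told apart.

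**Figure D3:**
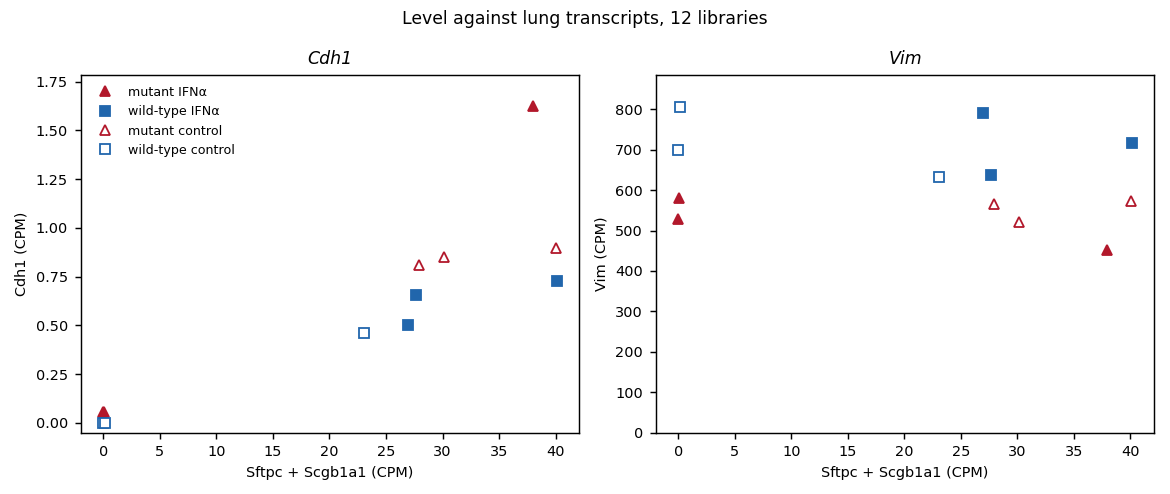
Level of Cdh1 (left) and of Vim (right) in CPM on the vertical axes against the summed CPM of the lung genes Sftpc and Scgb1a1 on the horizontal axis, for the 12 libraries by group. Cdh1 is at most 0.0565 CPM in the 4 libraries near 0 on the horizontal axis and at least 0.463 CPM in the other 8. Vim is lower in the mutant libraries at either end. Near 0 the mutant libraries are all with IFNα and the wild-type ones all without it, so line and treatment cannot be told apart there.

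The fitted log2 fold changes of Cdh1 had wide errors. For mutant over wild type the fold change was 2.47 ± 1.37 without IFNα (edgeR adjusted p = 0.536) and −0.13 ± 1.27 with it (edgeR adjusted p = 0.978). Neither was called. IFNα against control gave −0.57 ± 1.27 in mutant cells and 2.03 ± 1.35 in wild-type cells. Cdh1 was higher in all 3 mutant than in all 3 wild-type libraries without IFNα, as were 12.2% of all genes, and in all 3 IFNα than in all 3 control libraries of the wild type, as were 5.48%. With a term for lung transcripts the values became 1.2 and 1.73 for mutant over wild type without and with IFNα, and 1.29 and 0.76 for IFNα in mutant and wild-type cells. None of these was called, and the part of lung cells in the Cdh1 counts was not tested further.

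The other epithelial genes were described from a list of 20 junction and keratin genes, of which edgeR and DESeq2 called 0 of 16 tested in any comparison. At most 3 in a comparison had an unadjusted p under 0.05 in edgeR, and limma called 0 of those it covered. Among the 20, 9 were at 0 in all 4 libraries without lung transcripts and above 0 in at least 1 of the others, among them Cldn7, Ocln and Krt8 (tight junction and keratin genes), as were 14.5% of the 27503 genes of the table. In each library with lung transcripts 6 were higher than in each without, as were 0.865% of all genes. The summed list overlapped, at 53.8 to 72.7 CPM with lung transcripts and 51.4 to 65.1 CPM without. Of the 16 tested, 13 had a positive log2 fold change for mutant over wild type without IFNα (median 1.27) and 2 with IFNα (median −0.70). With IFNα 5 were positive in mutant cells (median −0.71) and 14 in wild-type cells (median 1.31). Counting genes with a group at 0 at their bound of 3 counts, the last pair of medians was −0.57 and 1.25.

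Catenins link cadherins to the cytoskeleton and were well expressed. Ctnnb1, which encodes beta-catenin, averaged 56.2 ± 11.0 FPKM in mutant IFNα, 72.2 ± 24.0 in wild-type IFNα, 53.3 ± 3.22 in mutant control and 67.8 ± 14.1 FPKM in wild-type control cells. Jup, which encodes plakoglobin, averaged 1.23 ± 0.359 FPKM in mutant IFNα, 0.893 ± 0.181 in wild-type IFNα, 1.35 ± 0.297 in mutant control and 0.861 ± 0.101 FPKM in wild-type control cells. Jup had log2 fold changes of 0.56 ± 0.242 with IFNα and 0.74 ± 0.243 without it for mutant over wild type (edgeR adjusted p = 0.323 and 0.318). Of the other cadherins and catenins edgeR called 0 of 10 tested in any comparison, with at most 3 at an unadjusted p under 0.05, and DESeq2 called Jup and Ctnnd1 in the averaged line comparison.

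Zeb2 and Zeb1 encode related repressors of E-cadherin. Zeb2 had 0.600, 0.685 and 0.903 FPKM in mutant IFNα, 1.06, 0.688 and 0.546 in wild-type IFNα, 0.662, 0.550 and 0.688 in mutant control and 0.688, 0.588 and 0.802 FPKM in wild-type control libraries. Zeb1 had 0.0279, 0.0320 and 0.0579 FPKM in mutant IFNα, 0.0513, 0.0200 and 0.0240 in wild-type IFNα, 0.0270, 0.0357 and 0.0865 in mutant control and 0.0505, 0.0367 and 0.0420 FPKM in wild-type control libraries. All groups overlapped for both genes. Zeb2 stood above Zeb1 per length in every library, by 7.96-fold in mutant control 3 to 34.3-fold in wild-type IFNα 2. The log2 fold change of Zeb2 for mutant over wild type was 0.04 ± 0.199 with IFNα and −0.02 ± 0.200 without it. Those of Zeb1 were 0.44 ± 0.578 and 0.30 ± 0.572, from 16 to 60 counts per library. With a term for lung transcripts in the model the value of Zeb1 without IFNα changed sign. Zeb2 lies over the antisense gene Zeb2os, with 1.76 FPKM and 3075 counts in all. Whether the counting used strand is not given in the sources used here, so reads of the pair may be mixed.

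Sox9 encodes a transcription factor of the neural crest and of cartilage, set in melanoma against the related Sox10. It had 0.538, 0.524 and 0.807 FPKM in mutant IFNα libraries, against 0.791, 0.396 and 0.663 FPKM in wild-type IFNα libraries. Without IFNα it had 0.260, 0.446 and 0.455 FPKM in mutant libraries, against 0.491, 0.882 and 0.622 FPKM in wild-type libraries. The groups overlapped with IFNα and did not overlap without it, where the mutant libraries were lower, as for 8.01% of all genes. The log2 fold change of mutant over wild type was −0.68 ± 0.315 without IFNα (edgeR adjusted p = 0.461, unadjusted p = 0.0476) and 0.12 ± 0.311 with it. IFNα against control gave 0.67 ± 0.316 in mutant cells (edgeR adjusted p = 0.491), where the IFNα libraries were again all higher, as for 7.97% of all genes. In wild-type cells it was −0.14 ± 0.311. The interaction, the difference between these IFNα effects, was 0.81 ± 0.443 and was not called (edgeR adjusted p = 0.916). Sox9 had 0.260 to 0.807 FPKM in libraries with lung transcripts and 0.524 to 0.882 FPKM in those without. Among the 8 with them the value without IFNα was −0.31 (edgeR adjusted p = 0.945), with 1 wild-type control library, which was assumed to vary like the other groups.

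Sox10, the partner that marks the melanocyte lineage, was far more abundant. It averaged 135 ± 33.7 FPKM in mutant IFNα, 133 ± 6.75 in wild-type IFNα, 116 ± 7.36 in mutant control and 136 ± 15.8 FPKM in wild-type control cells. Mitf, the master regulator of pigment genes, averaged 3.31 ± 0.327 FPKM in mutant IFNα, 4.76 ± 0.980 in wild-type IFNα, 4.23 ± 0.455 in mutant control and 4.79 ± 0.779 FPKM in wild-type control cells. Its log2 fold change for mutant over wild type was −0.42 ± 0.133 with IFNα (edgeR adjusted p = 0.172). In the list of neural crest and melanocyte regulators edgeR called 0 of 10 tested genes in any comparison, with at most 3 at an unadjusted p under 0.05, and DESeq2 called 1 in the averaged line comparison, Sox5.

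Across the 11 lists of partner genes edgeR called 0 of 135 tested in each of the 5 comparisons set first. At an unadjusted p under 0.05 there were 26 for mutant over wild type without IFNα (19.3%, against 10.7% of all genes) and 20 with it (14.8% against 13.7%). For IFNα there were 27 in mutant cells (20% against 10.3%) and 13 in wild-type cells (9.63% against 5.44%), and for the interaction 15 (11.1% against 5.17%). The mesenchymal cytoskeleton and matrix list held 12 of the 26, out of 27 tested. In that comparison lung transcripts were in 3 mutant libraries and 1 wild-type library, and their part in these values was not tested. DESeq2 called 5 of the 135 for mutant over wild type without IFNα, where it called 1.36% of all genes, and 6 with it, where it called 3.41%. For IFNα it called 1 in mutant cells (0.824% of all genes) and 0 in wild-type cells (0.37%), and for the interaction 0 (0.0796%), and limma called 0 in all 5. In the averaged line comparison edgeR called 5 of 135, where it called 2.8% of all genes, limma called 5, and DESeq2 called 15, where it called 6.74% of all genes. These 5 came from the list of mesenchymal cytoskeleton and matrix genes (3 of 27) and the list of intermediate filament partners (2 of 9). They are Fn1, Tnc, Sparc, Nes and Prph, and were chosen for the text after their values were seen.

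Nes encodes nestin, a filament protein of neural progenitors that assembles with vimentin. It had 6.12, 6.34 and 5.44 FPKM in mutant IFNα libraries, against 12.03, 7.84 and 9.70 FPKM in wild-type IFNα libraries. Without IFNα it had 4.47, 5.34 and 5.11 FPKM in mutant libraries, against 7.30, 8.17 and 10.3 FPKM in wild-type libraries. All 6 mutant libraries lay below all 6 wild-type libraries, as for 0.978% of all genes tested, and Nes was named because the averaged comparison called it. The averaged log2 fold change was −0.65 ± 0.0937 (edgeR adjusted p = 0.00260), passed in 12 of 12 leave-one-out fits, and was −0.63 in the 8 libraries with lung transcripts (adjusted p = 0.0264). Prph encodes peripherin, a filament protein of peripheral neurons, and went the other way. It averaged 1.58 ± 0.348 FPKM in mutant IFNα, 0.889 ± 0.0847 in wild-type IFNα, 1.15 ± 0.234 in mutant control and 0.801 ± 0.108 FPKM in wild-type control cells. Its averaged log2 fold change was 0.77 ± 0.172 (edgeR adjusted p = 0.0317). The call held only without mutant IFNα 2, mutant IFNα 3, mutant control 2 or wild-type control 1, 4 of the 12 fits, and adjusted p was 0.123 in the 8 libraries with lung transcripts.

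Fn1 and Tnc encode fibronectin and tenascin C, large glycoproteins of the extracellular matrix. Fn1 averaged 5.21 ± 0.359 FPKM in mutant IFNα, 3.39 ± 0.506 in wild-type IFNα, 4.46 ± 0.909 in mutant control and 3.14 ± 0.515 FPKM in wild-type control cells. Its averaged log2 fold change was 0.66 ± 0.116 (edgeR adjusted p = 0.00880), and in the 8 libraries with lung transcripts 0.49 (adjusted p = 0.0901). Tnc averaged 0.749 ± 0.408 FPKM in mutant IFNα, 0.334 ± 0.130 in wild-type IFNα, 1.37 ± 0.405 in mutant control and 0.450 ± 0.174 FPKM in wild-type control cells, with overlap between the lines. Its averaged log2 fold change was 1.5 ± 0.267 (edgeR adjusted p = 0.00913), and 2.23 in the 8 libraries with lung transcripts (adjusted p = 0.00448). Both calls held in 12 of 12 leave-one-out fits. Sparc, which encodes a calcium-binding matrix protein, averaged 62.9 ± 2.99 FPKM in mutant IFNα, 85.2 ± 18.4 in wild-type IFNα, 63.9 ± 1.66 in mutant control and 87.9 ± 14.4 FPKM in wild-type control cells. Its averaged log2 fold change was −0.34 ± 0.0825 (edgeR adjusted p = 0.0428), and the call held in 3 of those 12 fits, without mutant IFNα 3, wild-type IFNα 2 or wild-type control 1. In the 8 libraries with lung transcripts it was not called (adjusted p = 0.214). Genes of the matrix list thus moved in both directions. Its median log2 fold change for mutant over wild type was −0.20 with IFNα (4 of 27 positive) and 0.16 without it (18 of 27 positive), where all genes had −0.01 and 0.00. Lung transcripts were in 1 mutant and 3 wild-type libraries with IFNα, and in 3 and 1 without it. Their part in these medians was not tested. Averaged, the medians of the list and of all genes were 0.00 and −0.00.

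**Figure D4:**
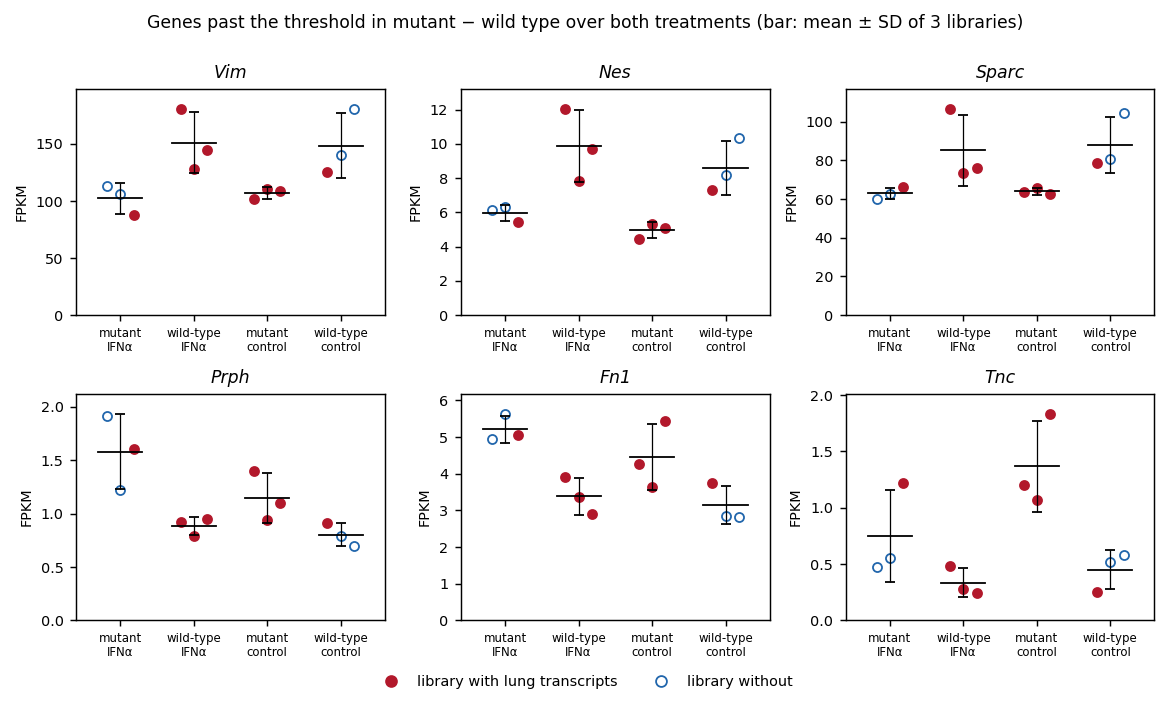
FPKM (vertical axis, own linear scale per gene) of the 6 genes named from the averaged line comparison, Vim among them, in each library by group. Points are filled where lung transcripts were present, and bars are mean ± SD of 3 libraries. Vim, Nes and Sparc are lower in all 6 mutant libraries than in all 6 wild-type ones, as are 0.978% of all genes tested (in CPM). Prph, Fn1 and Tnc are higher on average in the mutant with overlap in FPKM.

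The remaining lists held genes of the transition and of the invasive state. In the list of transcription factors of the transition and their epithelial counterparts, 11 of 19 genes were high enough to test. Of these, edgeR and DESeq2 called 0 in any comparison. At most 1 in a comparison had an unadjusted p under 0.05 in edgeR, and limma called 0 of those it covered. Tcf3, an E-box factor, was the most abundant at 16.5 ± 2.43 FPKM in mutant IFNα, 16.1 ± 1.96 in wild-type IFNα, 11.5 ± 1.21 in mutant control and 13.0 ± 2.11 FPKM in wild-type control cells. Its log2 fold change with IFNα was 0.51 ± 0.139 in mutant and 0.29 ± 0.139 in wild-type cells (edgeR adjusted p = 0.305 and 0.929). Among 23 tested genes of the invasive and undifferentiated list, Tead2, a partner of the YAP coactivator, averaged 12.6 ± 1.5 FPKM in mutant IFNα, 9.85 ± 0.547 in wild-type IFNα, 8.34 ± 0.358 in mutant control and 8.63 ± 0.921 FPKM in wild-type control cells. With IFNα in mutant cells its log2 fold change was 0.57 ± 0.113 (edgeR adjusted p = 0.167), and DESeq2 called it. Met, the receptor for hepatocyte growth factor, had −0.63 ± 0.185 for mutant over wild type with IFNα (edgeR adjusted p = 0.144) and was called by DESeq2. Of 13 tested genes of the TGF-beta pathway, which can drive the transition, edgeR called 0 in any comparison, with at most 2 at an unadjusted p under 0.05, and DESeq2 called 1 in the averaged line comparison, Tgfb1.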

How the data were processed

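The libraries were grouped by their labels into 4 groups of 3. The labels' protocols describe oligo(dT)-selected RNA, dUTP marking of the second strand and adapters with molecular identifiers. Tools listed by the submitters' processing notes, without roles, are HISAT2 2.0.4, StringTie 1.3.4d, cutadapt 1.9, UMI-tools, edgeR and DESeq2, with the build GRCm38. Per the file headers, the authors deposited a count and an FPKM for every gene and library. Of count values from 1 to 30, 33.6% are multiples of 4, against 23.3% of whole numbers in that range, so intervals and floors cover counting error only. Of 22640 gene starts matched by symbol, 2.85% lie within 1000 bases of those of GRCm38.p6, and coordinates are printed as deposited.

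The deposited counts of 17590 genes past edgeR's default low-count filter entered 1 model of 4 group means (edgeR 4.0.16 in R 4.3.3, TMM, two-sided quasi-likelihood test), with Benjamini-Hochberg adjustment over all genes at a threshold of 0.05. The common biological coefficient of variation was 28.9%. The 23 alternatives included DESeq2 1.42.0, limma 3.58.1 on log2(FPKM + 1) of genes reaching 1 FPKM in 3 libraries, a model term for lung transcripts (Sftpc and Scgb1a1 together above 1 CPM) and leave-one-out fits. Members, gene lists and the lung split were chosen with earlier results of these data known. From each partner list the rule named every called gene, otherwise the 3 with the smallest p, and the 2 most abundant; some of these are printed. Genes of like pattern were the 3 with the highest Pearson correlation among genes with a mean of at least 5 FPKM. In simulated counts, 2-fold changes were recovered for 34.3% of changed genes for mutant over wild type without IFNα, 55.2% with it and 59.7% averaged. For IFNα against control the share was 46.3% in mutant and 50.7% in wild-type cells, and for the interaction 20.9%. No pair of libraries of 1 group agreed within counting error, so none was taken as 1 library deposited more than once; this does not show that they came from different cultures.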

Additional observations from a re-analysis of the deposited data

How the results depend on the processing

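In the comparisons set first the count of 0 members called held under each alternative, except that DESeq2 and the 8 libraries with lung transcripts each called 1, Vim, for mutant over wild type with IFNα. In the averaged line comparison the count of 1 became 0 with the replicate block (edgeR adjusted p = 0.0623 for Vim), and was 0 to 1 in leave-one-out fits. Libraries with the same replicate number share only that number: over 6318 genes 9 of 18 such pairs had a correlation of deviations above 0.1, and 4 of 12 libraries correlated best with their own number. The block changed no other call of a member, and it ended the averaged call of Sparc (adjusted p = 0.0774). Of 1014 recomputed log2 fold changes of members 933 kept their direction and side of the threshold and 70 changed sign, 65 of these under 0.5 in size as reported; the cause was not tested. With library totals as scaling Zeb2 was −0.047 for mutant over wild type with IFNα and −0.084 averaged, and Ngfr was 0.020 for IFNα in wild-type cells, where the block gave 0.015. For IFNα in wild-type cells Vim was −0.0022 with DESeq2, −0.0022 with its size factors in edgeR and −0.0047 with an FPKM filter. The lung term gave −0.15 for Zeb1 in mutant over wild type without IFNα, 1.73 for Cdh1 with it, 0.047 and 1.29 for Zeb1 and Cdh1 with IFNα in mutant cells, −0.10 for Zeb2 with IFNα in wild-type cells, and 0.53 and 0.070 for Cdh1 and Cdh2 in the interaction. The 8 libraries alone gave 1.36 for Cdh1 in mutant over wild type with IFNα, 0.21 and 0.93 for Zeb1 and Cdh1 with IFNα in mutant cells, 0.14 and 0.24 for Axl and Sox9 with IFNα in wild-type cells, 0.49 and 0.062 for Cdh1 and Cdh2 in the interaction and 0.10 for Sox9 averaged. Members whose sign changed in a leave-one-out fit are given by the range of their log2 fold change. For mutant over wild type without IFNα it was −0.10 to 0.071 for Zeb2 and −0.36 to 0.59 for Zeb1. For mutant over wild type with IFNα it was −3.46 to 0.41 for Cdh1, −0.21 to 0.33 for Ngfr, −0.15 to 0.28 for Zeb2 and −0.12 to 0.27 for Sox9. For IFNα against control in mutant cells it was −0.0024 to 0.16 for Axl, −0.014 to 0.30 for Zeb2, −0.17 to 0.0032 for Vim and −0.74 to 0.30 for Zeb1. For IFNα against control in wild-type cells it was −0.13 to 0.28 for Zeb2, −0.086 to 0.10 for Vim, −0.20 to 0.10 for Axl, −0.24 to 0.22 for Ngfr and −0.30 to 0.15 for Sox9. For the interaction it was −0.26 to 0.79 for Zeb1, −0.13 to 0.32 for Zeb2, −0.19 to 0.0090 for Vim, −0.22 to 0.14 for Cdh2 and −0.019 to 0.29 for Axl. For the averaged line comparison it was −0.086 to 0.12 for Zeb2, −0.49 to 4.39 for Cdh1 and −0.28 to 0.010 for Ngfr. The value of −3.46 for Cdh1 was without mutant IFNα 3.

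Over all genes the calls for mutant over wild type without IFNα, with IFNα and averaged, 29, 105 and 493 as reported, were 240, 599 and 1185 with DESeq2, 17, 59 and 314 with the replicate block, and 16, 1136 and 742 in the 8 libraries with lung transcripts. They were 25, 49 and 362 with library totals, 35, 56 and 397 with limma, 21, 70 and 281 without a filter, 31, 207 and 594 with the FPKM filter, 38, 147 and 554 with robust estimation, and 11 to 58, 21 to 112 and 199 to 550 in leave-one-out fits. For IFNα in mutant cells, in wild-type cells and the interaction, 1, 4 and 0 as reported, DESeq2 gave 145, 65 and 14 and the 8 libraries 1135, 3 and 47. In those 8 libraries mutant IFNα and wild-type control are 1 library each, assumed to vary like the other groups, so these calls rest on single libraries. Higher calls made up 51.7%, 79% and 67.3% of the first set, and 40%, 65.3% and 46.7% with library totals. Egfr was too low to test, and the 95% intervals of Cdh1 and Zeb1 reached past 2-fold in each comparison.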
